A study of Mus musculus with 7 samples.

Results

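*Fmr1* encodes FMRP, the RNA-binding protein that is lost in fragile X syndrome, and it was described here together with its paralogs *Fxr1* and *Fxr2* and with genes for proteins that bind FMRP, *Cyfip1*, *Cyfip2*, *Nufip1* and *Nufip2*. These genes were chosen by name, and every probe set that the annotation of the array pairs with 1 of them alone was taken. Of the 7 genes, 6 had such a probe set, out of 18194 genes in all, and *Cyfip1* was not analysed here. They had 15 of the 45101 probe sets on the array. After probe sets with names ending in _x_at had been left out, 14 of the 15 reached a level of 50 on at least 1 array and were tested, out of 22748 tested probe sets in all.

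RNA came from primary cortical neurons of C57/Bl6J mice, taken from embryos at day 16 and kept for 16 days in vitro, and each sample was hybridised to its own Affymetrix Mouse 430_2 array. In 4 samples (luciferase neurons, replicates 1 to 4) the neurons carried a lentiviral short hairpin against luciferase, a gene that mice do not have, and 3 samples (blank neurons, replicates 5 to 7) were naïve, that is not transduced. No sample analysed here carried a hairpin against *Fmr1*. The comparison asks whether the genes of the FMRP network differed after lentiviral transduction with a hairpin that has no mouse target. Blank neurons received no virus, so the hairpin and the virus cannot be told apart. The cultures were made from dissected cortex and can hold cells other than neurons, and since the sources name no separate litters, a p-value here speaks only for the spread among these cultures, part of which may be technical.

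FMRP travels with messenger RNAs into dendrites, binds ribosomes and holds back translation of many synaptic proteins until receptors such as the group 1 metabotropic glutamate receptors are activated. FXR1P and FXR2P share its RNA-binding domains and form complexes with it. CYFIP1 and CYFIP2 work in a second setting too, as subunits of the WAVE regulatory complex, which passes signals from the small GTPase Rac to the actin-nucleating Arp2/3 complex. NUFIP1 is a nuclear FMRP-interacting protein that also takes part in the assembly of box C/D small nucleolar ribonucleoproteins, and NUFIP2 binds FMRP in the cytoplasm and enters stress granules.

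The promoters of *Fmr1* and its paralogs are shown, as the last 120 bases before each annotated start, because these are the genes whose levels are set side by side within arrays further on. They were taken from RefSeq on GRCm38.p6, where all 3 genes were matched, and lie on the plus strand: *Fmr1* at chrX:68678421-68678540, *Fxr1* at chr3:34019959-34020078 and *Fxr2* at chr11:69632851-69632970. Capitals mark matches, searched on both strands, to the NRF1 motif (GCGCA, then any base, then GCGC) and to the E-box CACGTG. Capitals also mark matches to the GC box GGGCGG, which reads CCGCCC on the other strand.
Fmr1: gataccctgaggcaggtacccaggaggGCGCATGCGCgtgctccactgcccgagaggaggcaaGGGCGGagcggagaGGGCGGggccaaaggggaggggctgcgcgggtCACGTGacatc
Fxr1: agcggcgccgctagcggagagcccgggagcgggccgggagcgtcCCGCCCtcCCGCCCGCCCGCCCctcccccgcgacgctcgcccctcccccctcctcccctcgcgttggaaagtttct
Fxr2: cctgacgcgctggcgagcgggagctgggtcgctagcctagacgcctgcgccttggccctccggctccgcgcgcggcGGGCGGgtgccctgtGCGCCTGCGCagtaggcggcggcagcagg
All 3 windows were rich in G and C (70.8% in *Fmr1*, 79.2% in *Fxr1* and 78.3% in *Fxr2*). *Fmr1* and *Fxr2* each held 1 match to the NRF1 motif, and *Fxr1* held 0 in this window. The match in *Fmr1* (GCGCATGCGC) is a palindrome. That in *Fxr2* (GCGCCTGCGC) is not one and fits the motif only on the other strand. *Fmr1* alone of the 3 held an E-box, which began 11 bases before the start, and the counts of GC boxes were 2 in *Fmr1*, 4 in *Fxr1* (some of them overlapping) and 1 in *Fxr2*. Of 32851 promoter windows of the same length, 2.79% held the NRF1 motif, 3.66% the E-box and 26.5% the GC box. A match is a description of the letters and not of binding.

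*Fmr1* stood at nearly the same mean level in both groups. Its brightest probe set (1423369_at) read 1020.10, 939.92, 980.11 and 910.47 in luciferase replicates 1 to 4 and 895.19, 906.59 and 1132.56 in blank replicates 5 to 7. The luciferase arrays all lay inside the range of the blank arrays, of which replicate 7 was the highest. The means were 962.6 ± 47.8 (SD, n = 4) and 978.1 ± 133.9 (SD, n = 3), and the log2 change, here and throughout luciferase minus blank, was -0.016 (standard error 0.097, 95% interval -0.23 to 0.20, limma adjusted p = 0.920). In fold terms the interval reached from 0.851 to 1.15.

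The other probe sets of *Fmr1* carry the suffix _a_at, which on this array marks probes shared by several transcripts of 1 gene. Probe set 1426086_a_at read 121.44, 118.46, 110.53 and 143.30 in luciferase neurons and 139.20, 141.59 and 88.86 in blank neurons (log2 change 0.028, limma adjusted p = 0.916). Probe set 1452550_a_at read 224.93, 178.48, 182.46 and 221.78 in luciferase neurons and 218.44, 243.26 and 166.68 in blank neurons (-0.043, limma adjusted p = 0.841). In both, blank replicate 7 was the lowest of all 7 arrays, whereas it was the highest of all 7 in 1423369_at. The 3 probe sets were not found to differ in their change (limma diffSplice, adjusted p = 0.984), a test that 5.90% of 5291 genes with several probe sets passed and 0 of the 4 such genes described here.

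*Fxr1*, whose protein is the paralog of FMRP that is also strong in muscle, had 4 tested probe sets, and all 4 had a higher mean in luciferase neurons (2 of them with centred arrays and 3 with quantile normalization) without passing the test. The brightest (1417598_a_at) read 845.35, 829.13, 852.90 and 866.71 in luciferase neurons and 797.68, 680.18 and 776.80 in blank neurons. Every luciferase array lay above every blank array, which held for this 1 of the 14 probe sets, beside 34.8% of all tested probe sets whose groups did not overlap (22.5% with luciferase higher). The means of 848.5 ± 15.7 (SD, n = 4) and 751.6 ± 62.7 (SD, n = 3) gave a log2 change of 0.18 (standard error 0.078, 95% interval 0.0045 to 0.35, unadjusted p = 0.045, adjusted p = 0.120, both from limma).

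Probe set 1452247_at of *Fxr1* read 267.41, 260.49, 265.79 and 251.00 in luciferase neurons and 214.38, 213.66 and 252.76 in blank neurons. Blank replicate 7 lay above luciferase replicate 4, and the other blank arrays lay below all luciferase arrays. Its log2 change was 0.21 (standard error 0.082, 95% interval 0.024 to 0.39, limma adjusted p = 0.0926). The remaining probe sets, 1436400_at and 1442059_at, had log2 changes of 0.024 and 0.045 with overlapping groups. The 4 were not found to differ from each other in change (limma diffSplice, adjusted p = 0.768), and their mean gave a log2 change of 0.11 (95% interval -0.059 to 0.29, limma adjusted p = 0.289).

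*Fxr2*, the paralog that is strong in brain, had 1 probe set (1422522_at), which read 377.36, 409.76, 402.86 and 378.94 in luciferase neurons and 369.48, 338.68 and 456.51 in blank neurons. The luciferase arrays again fell inside the blank range. The log2 change was 0.025 (95% interval -0.21 to 0.26, limma adjusted p = 0.876).

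*Cyfip2*, which encodes the CYFIP subunit of the WAVE complex that is abundant in neurons, had a bright probe set (1428347_at) at 1176.00, 1185.63, 1238.81 and 1161.24 in luciferase neurons and at 988.98, 1061.10 and 1331.90 in blank neurons. Blank replicate 7 was above every luciferase array and the other blank arrays were below every one. The log2 change was 0.090 (standard error 0.10, 95% interval -0.14 to 0.32, limma adjusted p = 0.544). Its probe set 1449273_at was more scattered, at 630.56, 895.17, 898.22 and 867.74 in luciferase neurons and 908.66, 515.38 and 767.82 in blank neurons (0.20, 95% interval -0.23 to 0.63, limma adjusted p = 0.479). Here 1 array in each group, luciferase replicate 1 and blank replicate 6, stood low. The third *Cyfip2* probe set (1442167_at) was dim and was left out by the filter on level, with 23.88, 19.88, 25.63 and 23.89 in luciferase neurons and 36.87, 29.65 and 31.98 in blank neurons. With no filter on level it was lower in luciferase neurons (-0.49, limma adjusted p = 0.018, where 11.9% of 42596 probe sets passed), in the direction opposite to the other probe sets of the gene.

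*Nufip1* had 1 probe set (1448802_at) at 335.52, 366.76, 352.48 and 334.81 in luciferase neurons and 327.86, 335.86 and 356.08 in blank neurons. The groups overlapped. It was the most even of the brightest probe sets in the blank group, with an SD of 4.28% of the blank mean, and its log2 change was 0.031 (95% interval -0.13 to 0.19, limma adjusted p = 0.776).

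*Nufip2* gave the largest log2 change among the 14, in its brightest probe set (1428583_at). This read 483.22, 396.64, 459.46 and 448.49 in luciferase neurons and 369.63, 344.03 and 418.90 in blank neurons. Luciferase replicate 2 lay below blank replicate 7, and the other luciferase arrays lay above all blank arrays. The log2 change was 0.24 or 1.18-fold (standard error 0.096, 95% interval 0.029 to 0.46, unadjusted p = 0.030, adjusted p = 0.0910, both from limma). The other *Nufip2* probe sets had means slightly lower in luciferase neurons. Probe set 1435632_at had a log2 change of -0.017, and 1455387_at, which ranged from 135.36 to 260.68 over the blank arrays and from 138.74 to 222.36 over the luciferase arrays, one of -0.10 (95% interval -0.58 to 0.38). The 3 were not found to differ in change (limma diffSplice, adjusted p = 0.611).

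**Figure D1:**
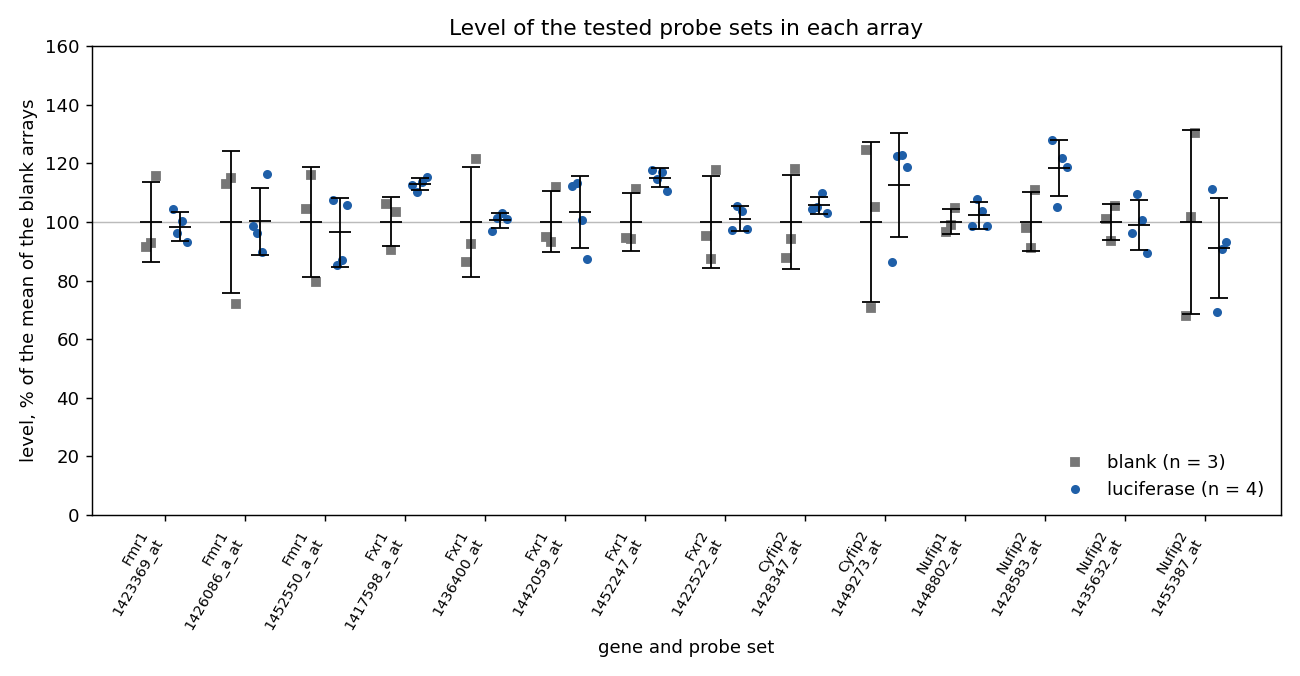
Level of each tested probe set on every array, scaled to a blank mean of 100% (vertical axis, from 0), for blank neurons (grey squares, n = 3) and luciferase neurons (blue circles, n = 4); the bars give mean ± SD. The groups overlap in 13 of the 14 probe sets, and the exception is *Fxr1* 1417598_a_at, with luciferase neurons at 112.9% of blank.

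None of the 14 probe sets passed the adjusted p of 0.05 from limma, where 24.5% of all tested probe sets did (16.2% higher and 8.26% lower in luciferase neurons, and 4.19% with at least a 1.5-fold change as well). At an unadjusted p below 0.05 from limma there were 3 of 14, beside 38.9% of all. After quantile normalization, or after centring the arrays on their medians, again none of the 14 passed in limma, beside 22.9% and 24.4% of all. The mean was higher in luciferase neurons in 10 probe sets and lower in 4, but the split was 4 and 10 with centred arrays and 6 and 8 with quantile normalization. Log2 changes ran from -0.10 to 0.24 with a median of 0.029, where the median over all tested probe sets was 0.056. In absolute size the median was 0.044 among the 14 and 0.17 among all. The 95% interval lay within 1.5-fold in either direction for 12 of the 14, the exceptions being *Cyfip2* 1449273_at and *Nufip2* 1455387_at.

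**Figure D2:**
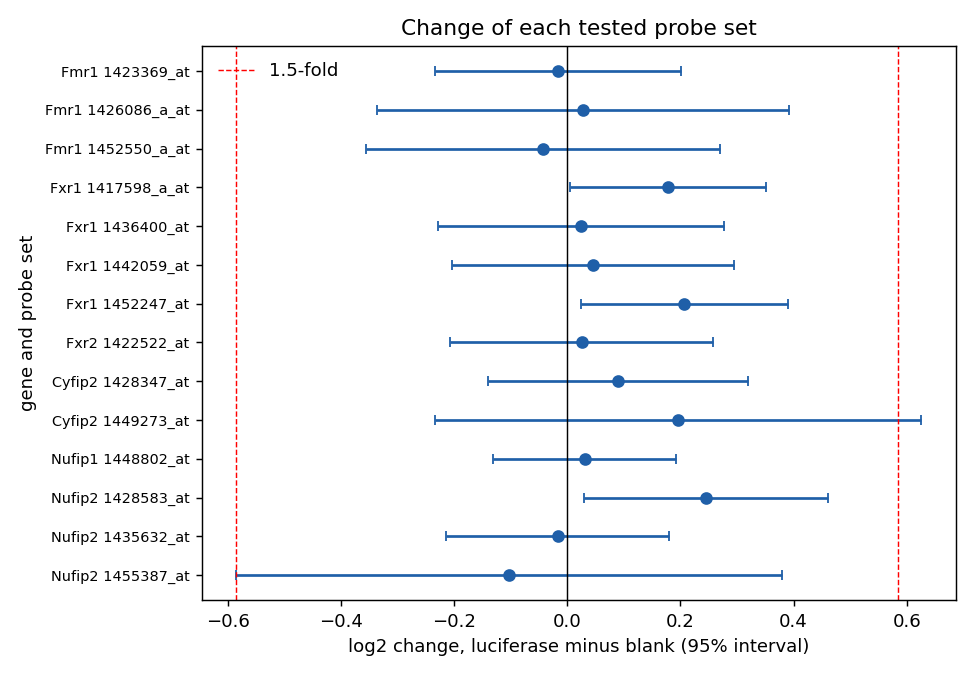
Log2 change, luciferase minus blank, of each tested probe set (circles) with its 95% interval from limma (bars); the dashed lines mark 1.5-fold. The 14 values run from -0.10 to 0.24, and 3 intervals lie wholly above 0, those of *Fxr1* 1417598_a_at, *Fxr1* 1452247_at and *Nufip2* 1428583_at.

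Paralogs were also compared with each other within each array, as the log2 ratio of the brightest probe set of each gene, for which only the difference between the groups can be read. The ratio of *Fxr1* to *Fmr1* differed by 0.19 (95% interval -0.075 to 0.46; two-sided exact permutation test, p = 0.200, adjusted over 4 ratios 0.267). *Fxr2* to *Fmr1* differed by 0.041 (-0.14 to 0.22; two-sided exact permutation test, p = 0.543). *Fxr2* to *Fxr1* differed by -0.15 (-0.40 to 0.097; two-sided exact permutation test, p = 0.171, adjusted 0.267), and *Nufip2* to *Nufip1* by 0.21 (-0.083 to 0.51; two-sided exact permutation test, p = 0.143, adjusted 0.267). With 4 arrays against 3 the smallest p that the test can give is 0.0286, which for 1 ratio alone becomes 0.114 after adjustment over the 4, so that the adjusted p could hardly pass and the intervals are the measure of what was seen. For *Nufip2* to *Nufip1* the difference was 0.011 when the mean of all probe sets of a gene stood for it (two-sided exact permutation test, p = 0.886).

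Much of the spread lay in the blank group, and in 1 array of it. The log2 SD was larger among blank than among luciferase arrays in 11 of the 14 probe sets (60.5% of all tested probe sets), with a median of 0.21 against 0.096 (0.13 against 0.10 over all). Blank replicate 7 was the highest blank array in 10 of the 14 and the lowest in 2, both of them _a_at probe sets of *Fmr1*. Over all tested probe sets it was the highest in 53.9% and the lowest in 26.7%. Its mean correlation with the other blank arrays was 0.989, beside 0.993 for replicate 5 and 0.992 for replicate 6.

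Without blank replicate 7, 3 of the 14 passed, all higher in luciferase neurons, where 31.0% of all tested probe sets passed. These were *Fxr1* 1452247_at (log2 change 0.29, limma adjusted p = 0.016), *Cyfip2* 1428347_at (0.22, adjusted p = 0.049) and *Nufip2* 1428583_at (0.32, adjusted p = 0.032). When all arrays were kept but weighted by their quality in limma, the same 3 passed and 42.0% of all did. The change of *Fmr1* 1423369_at was then 0.086 (limma adjusted p = 0.339) and without blank replicate 7 it was 0.094.

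**Figure D3:**
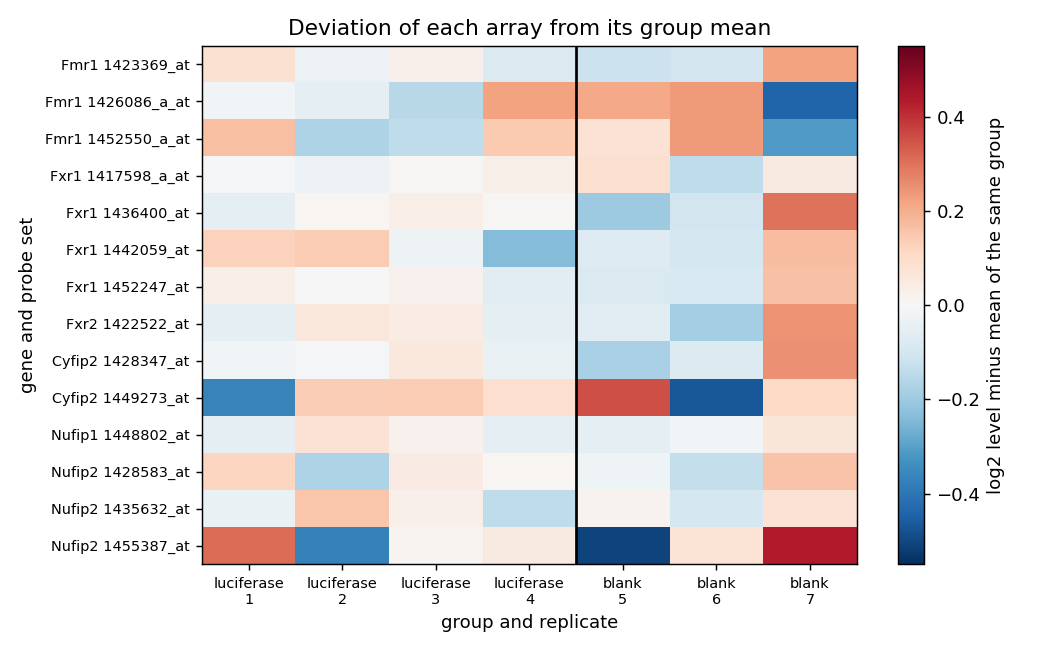
Log2 level of each tested probe set in each array minus the mean of that array's own group (colour scale, red above and blue below the group mean), with luciferase replicates 1 to 4 and blank replicates 5 to 7 on either side of the line. Blank replicate 7 is red in 12 of the 14 rows and blue in both _a_at rows of *Fmr1*.

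The same deviations show which probe sets varied together from array to array within their group, as a description over 7 arrays that share their processing. In *Fmr1*, 1426086_a_at and 1452550_a_at went together (Pearson r 0.88) and 1426086_a_at went against 1423369_at (r -0.93). *Fmr1* 1423369_at went with *Fxr1* 1452247_at (r 0.99) and with *Cyfip2* 1428347_at (r 0.91), and *Fxr1* 1436400_at with *Cyfip2* 1428347_at (r 0.98). These are a few of all pairs, named after their values had been seen. In *Fmr1* 1423369_at (0.22), *Fxr1* 1452247_at (0.16) and *Cyfip2* 1428347_at (0.25), blank replicate 7 was the array that deviated most. It was also the furthest array in *Fmr1* 1426086_a_at (-0.44), *Fmr1* 1452550_a_at (-0.31) and *Fxr1* 1436400_at (0.30). All these r therefore rest largely on 1 array.

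Over the levels of the same 7 arrays, the gene most like *Fmr1* 1423369_at was *Zfp365* (r 0.990), followed by *A830018L16Rik* and *Rhobtb3*. For *Fxr1* these were *Trim37* (r 0.995), *Brwd1* and *Msl2*, and for *Fxr2* they were *Dchs1* (r 0.991), *Zfp318* and *Fundc1*. *Cyfip2* was most like *Atg9a* (r 0.992), *Rb1* and *Dlg3*, *Nufip1* like *Ptpa* (r 0.984), *Asic1* and *Zfp28*, and *Nufip2* like *Ppm1e* (r 0.991), *Sec22c* and *Nrg3*. These are descriptions over 7 arrays, and no test was made of them.

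Genes that work with these proteins were read from lists, with the brightest probe set standing for each gene. Of 123 listed genes 110 were tested, and 15 rose and 10 fell in luciferase neurons (22.7% in all), where 25.4% of 12315 genes passed (16.9% higher, 8.55% lower). The median log2 change was 0.014 in the lists and 0.058 over all genes. The balance of rises and falls turned with the scaling, to 6 and 16 with centred arrays and 8 and 15 with quantile normalization. Of the 25 that passed, 8 also passed under every alternative run (*Arc*, *Dgkk*, *Dlgap3*, *Eif4e3*, *Gabrd*, *Plcb1*, *Plcb4* and *Rac3*). When the mean of all probe sets stood for each gene, an alternative chosen after seeing the data, 16 of the 25 still passed. In that run 17 of the 110 tested genes rose and 10 fell, where 30.5% of all genes passed. Without luciferase replicates 1, 2, 3 and 4, 17, 12, 14 and 15 of the 25 still passed, and without blank replicates 5, 6 and 7, 13, 13 and 22 did.

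Of the WAVE complex and the Rac proteins that act on it, 10 of 11 genes were tested. Among them 1 rose and 3 fell (40.0% in all, beside 25.4% of all genes, median -0.074). *Rac3*, a neuronal Rac GTPase, fell to 1828 ± 282 (SD, n = 4) against 2541 ± 31.2 (SD, n = 3) in blank neurons (log2 change -0.49, limma adjusted p = 0.016). *Wasf2*, a WAVE protein, rose by 0.42 (limma adjusted p = 0.013), but not without blank replicate 5 (adjusted p = 0.052) or as the mean of its probe sets (0.25, adjusted p = 0.081), of which the other had a change of 0.075. *Wasf3* (-0.49) and *Abi2* (-0.33) fell too but lost the call under 5 of 15 and 8 of 16 alternatives. Of the Arp2/3 complex, 6 of 9 genes were tested, none passed in limma either adjusted or at an unadjusted p below 0.05, and the changes ran from -0.13 to 0.078.

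On the side of translation, 13 of 15 genes of the cap-binding machinery were tested. Here 3 rose and 0 fell (23.1% in all, beside 25.4% of all genes, median 0.044). *Eif4e3*, a cap-binding protein of the eIF4E family, rose to 243.4 ± 37.6 (SD, n = 4) against 149.4 ± 9.13 (SD, n = 3) in blank neurons (log2 change 0.69, limma adjusted p = 0.0048). Its other probe set had a change of -0.0039, and the mean of both one of 0.34 (adjusted p = 0.020). *Mknk2* (0.31), a kinase of eIF4E, and *Eif4ebp2* (0.27), the neuronal eIF4E-binding repressor, lost the call under 7 and 9 of 16 alternatives.

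Of the partners of FMRP in RNA granules, 20 of 21 genes were tested. None passed the adjusted p from limma, beside 25.4% of all genes, and the median was -0.0067. At an unadjusted p below 0.05 from limma there were 4 (*Ago1*, *Mov10*, *Ranbp9* and *Pura*, named after their values had been seen). When the mean of all probe sets stood for each gene, *Caprin1* (0.23, limma adjusted p = 0.023), *Pura* (0.28, adjusted p = 0.033) and *Ago2* (0.38, adjusted p = 0.028) rose. *Ago1* fell (-0.19, limma adjusted p = 0.045), and 30.5% of all genes passed in that run. Across the other alternatives 0 to 2 rose and 0 to 1 fell. Of the enzymes that modify FMRP, 6 of 8 were tested, and 1 fell (16.7%, beside 25.4% of all genes). At an unadjusted p below 0.05 from limma there were 4, and the median was -0.17. Over all tested probe sets 38.9% had such an unadjusted p. With array weights and with centred arrays 3 fell. *Csnk2a2*, a catalytic subunit of casein kinase 2, fell to 512.0 ± 33.7 (SD, n = 4) against 809.4 ± 114.7 (SD, n = 3) in blank neurons (log2 change -0.65, limma adjusted p = 0.0033). Its 6 tested probe sets ranged from -0.65 to 0.16, and their mean did not pass (-0.13, adjusted p = 0.409).

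Of the stress granule proteins, the setting of NUFIP2, all 13 were tested. Among these 2 rose and 0 fell (15.4% in all, beside 25.4% of all genes, median 0.099). *G3bp1*, the granule nucleator (0.27), and *Tia1* (0.30) lost the call under 9 and 10 of 16 alternatives. Of the box C/D assembly genes, the setting of NUFIP1, 9 of 10 were tested. In this list 2 rose and 1 fell (33.3% in all, median 0.091). *Znhit3*, whose protein binds NUFIP1 (0.31), *Nop56* (0.28) and the methyltransferase gene *Fbl* (-0.30) lost the call under 7, 8 and 7 of 16 alternatives.

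Of the messenger RNAs that FMRP binds, 25 of 26 were tested, and 4 rose, 4 fell and 17 did not pass. The share that passed was 32.0%, beside 25.4% of all genes, and the median was 0.072, beside 0.058. *Arc*, an activity-dependent gene whose protein drives removal of AMPA receptors, fell to 76.4 ± 9.66 (SD, n = 4) against 130.5 ± 24.9 (SD, n = 3) in blank neurons (log2 change -0.76, limma adjusted p = 0.0068). *Dlgap3*, which encodes a postsynaptic scaffold protein, fell by 0.66 on the log2 scale (limma adjusted p = 0.0069). *Dgkk*, a diacylglycerol kinase, rose by 0.65 (adjusted p = 0.0063), *Gabrd*, the delta subunit of the GABA-A receptor, by 0.52 (adjusted p = 0.0046) and *Kcnc1*, a fast potassium channel, by 0.42 (adjusted p = 0.0056, all from limma). The 4 tested probe sets of *Kcnc1* disagreed, with changes from -0.37 to 0.48, and their mean did not pass (0.14, adjusted p = 0.162). The largest difference in the list, in *Kcnma1*, did not pass (444.0 ± 193.8 against 198.3 ± 23.8, log2 change 1.03, limma adjusted p = 0.061). The 3 tested probe sets of *Kcnma1* ran from -0.14 to 1.03, and their mean did not pass (0.26, limma adjusted p = 0.242). This gene, like *Dlgap3*, was singled out after its value had been seen.

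Of the group 1 metabotropic glutamate receptor pathway, which releases translation from FMRP, 8 of 10 genes were tested. Here 3 rose and 1 fell (median 0.095), so 4 of the 8 passed, beside 25.4% of all genes. The phospholipases that act below the receptors went opposite ways. *Plcb1* fell to 1086 ± 59.0 (SD, n = 4) against 1752 ± 22.8 (SD, n = 3) in blank neurons (log2 change -0.69, limma adjusted p = 5.4e-04), and its 3 tested probe sets ran from -0.69 to -0.51. *Plcb4* rose to 487.3 ± 53.7 (SD, n = 4) against 332.9 ± 3.44 (SD, n = 3) in blank neurons (log2 change 0.54, limma adjusted p = 0.0046), and its 3 ran from 0.33 to 0.70. The receptor gene *Grm5* (0.38) and the G protein gene *Gna11* (0.29) lost the call under 10 and 8 of 16 alternatives.

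**Figure D4:**
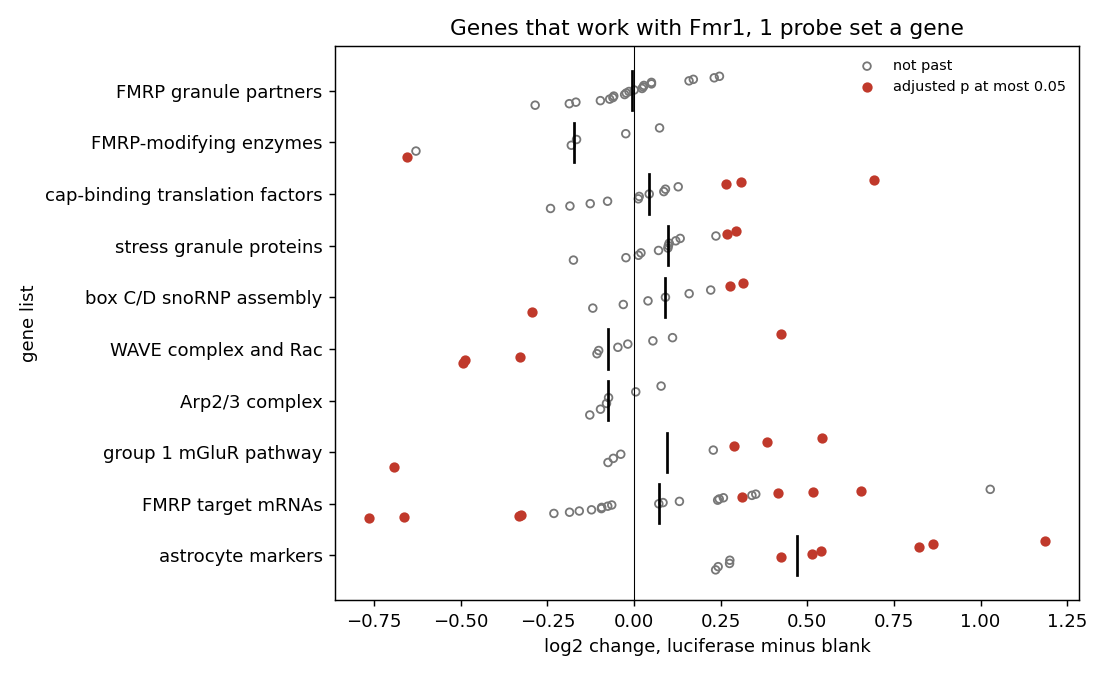
Log2 change, luciferase minus blank, of each gene in the lists (rows), 1 probe set a gene; red circles passed the adjusted p of 0.05, open circles did not, and black bars are the medians of the lists. The medians of the 9 pathway lists lie between -0.17 and 0.099, and that of the astrocyte markers lies at 0.47.

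Markers of the cells in the cultures differed between the groups beside these values. All 10 neuron markers were measured, with *Slc17a7* higher and *Neurod6* lower and a summed level of 46658 to 48542 in luciferase neurons and 45162 to 49140 in blank neurons. Of 10 astrocyte markers 6 rose, led by *Gfap* (log2 change 1.19), and the summed level was 24663 to 26976 against 18296 to 20366. Of the vascular and meningeal markers 5 of 10 were tested, with 1 higher and 2 lower (summed level 563 to 764 against 978 to 1124). Most of this sum was *Dcn*, at 421.5 ± 83.7 (SD, n = 4) against 834.7 ± 93.5 (SD, n = 3) in blank neurons. The other tested markers had group means from 41.1 to 78.3, near the filter on level, so the sum does not speak for the cell type. *Pecam1*, *Cldn5* and *Cdh5* were under 50 on every array. Of 8 tested progenitor markers 3 rose, and of 8 oligodendrocyte markers 1 rose and 1 fell. Of the microglia markers 7 of 10 were under 50 on every array, *Aif1* and *Cx3cr1* among them, and none of the others passed. Some marker calls were lost under alternatives, that of *Slc17a7* under 8 of 16, of *S100b* under 9 of 16, of *Mag* under 8 of 14, of *Col1a2* under 4 of 14, of *Vim* and *Mbp* under 2 of 16 and of *Gja1* under 1 of 16, whereas *Gfap*, *Aldh1l1*, *Aqp4*, *Slc1a2*, *Neurod6*, *Dcn*, *Pdgfrb*, *Pax6* and *Hes5* passed under all that were run. In such mixed RNA more cells of a type and more RNA per cell cannot be told apart, and the part of these cells in the values above was not tested. The median level over the tested probe sets was 237.4 to 241.4 in luciferase and 215.5 to 235.1 in blank neurons.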

How the data were processed

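RNA of 4 luciferase and 3 blank samples was measured on 1 array each. Groups came from the sample labels. Per the labels and methods, the authors normalized the scans with RMA (version: not given in the sources used here). Whether the luciferase and blank arrays were normalized together is not stated there. They deposited linear intensity values, which ran from 4.69 to 23763. The blank columns of the deposited table begin 1 row low, with 3 running numbers in place of intensities in the first row. They were moved up 1 row: over 45037 probe sets the group means then had r = 0.995, and at most 0.421 with other moves. Means and SDs are of the linear intensities. The table held 0 columns of other samples.

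The log2 of each deposited value entered a limma fit (version 3.58.1, R 4.3.3) with lmFit and eBayes and without covariates, for luciferase minus blank, with Benjamini-Hochberg adjustment over 22748 probe sets. These were the probe sets left after 64 controls, 2441 with _x in the name and those under 50 on every array were dropped. A probe set passed at an adjusted p of at most 0.05. Intervals are 95% intervals of the fit, or of a difference of means for ratios. The brightest probe set (highest mean over all arrays) stood for a gene. Probe sets of 1 gene were compared with diffSplice over 5291 genes, of which 312 (5.90%) passed and 0 of the 4 described here did. Ratios were tested over the 35 splits of the arrays. Of all probe sets 34958 name 1 gene, 932 several and 9211 none here. Array number limits the precision. The calculations were tested on simulated data.

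The members and lists were chosen with earlier results of these data known. Named were every probe set of the members, up to 4 genes with the smallest adjusted p among those that passed in each list, and the 3 genes most like each member. Some genes that passed are not named. The alternatives were other filters on level, _x probe sets kept, quantile normalization, centring each array on its median, eBayes with trend and robust settings, array weights, the mean of all probe sets of a gene (for the lists added after seeing the data), and leaving out each array.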

Additional observations from a re-analysis of the deposited data

Results flagged for a closer look

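In *Cyfip2* 1449273_at, luciferase replicate 1 stood apart from the rest of its group at 630.56, where the nearest luciferase array was at 867.74 and the furthest at 898.22, a gap of 0.886 of the group's range. The limit used for such gaps is passed by chance in about 1 group in 20. Without this array the log2 change was 0.32 in place of 0.20 and did not pass (limma adjusted p = 0.244). In *Cyfip2* 1428347_at the same array lay among the other luciferase arrays, at 1176.00.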

How the results depend on the processing

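No paired analysis was possible because the luciferase and blank samples share no replicate numbers. The count of probe sets of the described genes that passed was 0 except with array weights (3), with no filter on level (1) and without single arrays (0 to 3, with 3 only without blank replicate 7). Rises in the pathway lists numbered 15, and 23 with array weights, 6 with arrays centred on their median, 7 with no filter, 8 with quantile normalization and 6 to 19 without single arrays. Falls numbered 10, and 16 both with array weights and with centred arrays, 15 with quantile normalization and 5 to 9 without single arrays. Centring moved the median change of all tested probe sets from 0.056 to -0.040 and quantile normalization to 0.0063, and of all that passed 66.2% were higher as deposited, 37.3% with centring and 51.5% with quantile normalization.

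The sign of the small log2 changes was not stable. With centred arrays it turned in *Cyfip2* 1428347_at (-0.0059), *Fmr1* 1426086_a_at (-0.068), *Fxr1* 1436400_at (-0.072), *Fxr1* 1442059_at (-0.051), *Fxr2* (-0.071) and *Nufip1* (-0.065). With quantile normalization it turned in *Fmr1* 1426086_a_at (-0.049), *Fxr1* 1436400_at (-0.064), *Fxr2* (-0.063) and *Nufip1* (-0.064). With array weights it turned in *Fmr1* 1423369_at (0.086), *Fmr1* 1426086_a_at (-0.17) and *Nufip2* 1455387_at (0.24). None of these values passed. Leaving out single arrays gave ranges across 0 for *Fmr1* 1423369_at (-0.075 to 0.094), *Fmr1* 1426086_a_at (-0.19 to 0.14), *Fmr1* 1452550_a_at (-0.20 to 0.073), *Fxr1* 1436400_at (-0.075 to 0.17), *Fxr1* 1442059_at (-0.0029 to 0.13), *Fxr2* (-0.067 to 0.15), *Cyfip2* 1449273_at (-0.036 to 0.37), *Nufip2* 1435632_at (-0.067 to 0.030), *Nufip2* 1455387_at (-0.36 to 0.11) and the ratio of *Fxr2* to *Fmr1* (-0.0012 to 0.088). The cause was not tested. *Fxr1* 1417598_a_at, *Fxr1* 1452247_at and *Nufip2* 1428583_at stayed above 0 in all alternatives run. The ratio of *Cyfip2* to *Cyfip1* was not run.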
